A study of Homo sapiens with 6 samples.

Results

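The Schlafen family in human is a cluster of 6 genes on chromosome 17, SLFN5, SLFN11, SLFN12, SLFN12L, SLFN13 and SLFN14, and their transcripts were followed in the HCT116 cell line after knockdown of STRIP2. The members were taken by gene symbol, and all 6 symbols were found among the 61806 genes of the deposited table. The family was chosen by its values in these same libraries, so what is given for its members in the comparison of the groups is a description, with no test. HCT116 is an established line of human colorectal carcinoma cells. The control group has 3 libraries titled si-NC, with the genotype labelled wildtype. The other group has 3 libraries titled si-STRIP2, with the genotype labelled STRIP2 knockdown. The sequence, dose and duration of the knockdown reagent are not given in the sources used here. STRIP2 is a scaffold protein of STRIPAK, a complex that joins a phosphatase to kinases. All 6 libraries were made from the same line, kept in the same medium, by poly(A) selection and sequencing of RNA. Nothing in the labels tells if replicates were separate cultures, and p-values then measure only the spread between these samples, which may be technical.

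Schlafen proteins share an N-terminal core with an RNA-cutting fold, and several of them cut transfer or ribosomal RNA. SLFN5, SLFN11, SLFN13 and SLFN14 carry a long C-terminal part that resembles a helicase, and SLFN12 and SLFN12L end before it. Many of the genes are switched on by interferon, and the proteins are known for restricting viruses, for stopping stressed replication forks and for holding back protein synthesis. In colorectal and other cancer lines SLFN11 is often silent, and its loss is known as a mark of resistance to drugs that damage DNA.

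The libraries held 17184963 to 21721218 counts. Of all genes, 15687 had enough counts to be tested with edgeR, and 54.8% of them were called at an adjusted p under 0.05, with 27.8% higher and 27.0% lower in si-STRIP2. The targeted gene STRIP2 (ENSG00000128578, chromosome 7, 129434432 to 129488399, plus strand) stood at 3.19, 3.77 and 3.81 FPKM in si-NC and at 2.71, 2.53 and 2.58 FPKM in si-STRIP2. FPKM is the count scaled by exon length and by library size. STRIP2 was lower in each si-STRIP2 library than in any si-NC library, with a log2 fold change of -0.46 (SE 0.083, edgeR adjusted p = 1.62e-05), so most of its transcript remained. Of 10 markers of colorectal epithelium, EPCAM, KRT8, KRT18, KRT19, CDH1 and CDX2 were tested, VIL1, LGR5 and CEACAM5 were near 0 and CDX1 was at 0. The summed FPKM of these markers was 690.7 to 720.8 in si-NC and 667 to 691 in si-STRIP2. A list of 10 blood cell markers was chiefly of white cells, in which Schlafen genes are widely active, and included the red-cell gene HBB. Together they summed to 0.46 to 0.67 FPKM in si-NC and 0.36 to 0.64 in si-STRIP2, with CD3D and HBB at 0. The markers of fibroblasts summed to at most 2.68 FPKM and those of endothelium to at most 0.48.

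SLFN5 was the one member with more than 3 counts in any library. It had 20574 counts over the 6 libraries, and the other 5 members together had 8, so 99.961% of the family's counts were from SLFN5. SLFN11, whose protein blocks stressed replication forks and cuts transfer RNA, had 0 counts in all 6 libraries. SLFN12L, a close relative of SLFN12 with no well-known role, also had 0 in all 6. SLFN12, which cuts a leucine transfer RNA when bound by the phosphodiesterase PDE3A, had 0 in each si-NC library and 1, 2 and 0 in the si-STRIP2 libraries. SLFN14, a ribosome-bound RNA-cutting enzyme of platelets, had 0 in each si-NC library and 1, 1 and 0 in si-STRIP2. SLFN13, an enzyme that cuts transfer and ribosomal RNA, had 0, 0 and 3 in si-NC and 0 in each si-STRIP2 library. Counts of this size cannot be told from 0, and no fold change is given for these 5 genes.

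**Figure D1:**
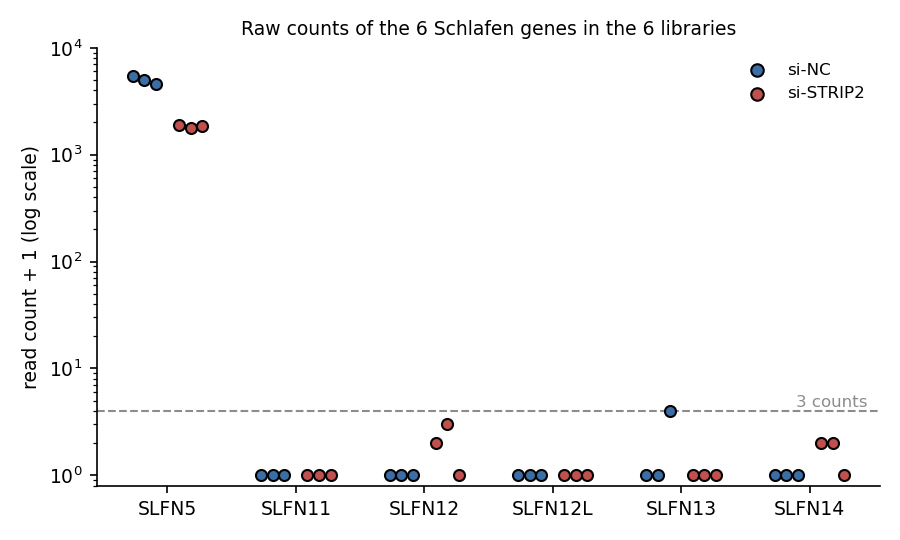
Raw read counts of the 6 Schlafen genes in each library, plotted as count + 1 on a log axis, with 3 si-NC libraries in blue and 3 si-STRIP2 libraries in red. SLFN5 lies between 1791 and 5461 counts, and each of the other 5 genes lies at or under the dashed line of 3 counts.

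A count of 0 in a library allows up to 3 counts. That limit covers counting error only, as reads without molecular identifiers are not independent molecules. The limit was taken as 3 counts over the 3 libraries of a group, and a gene's length was multiplied by the share of its transcript sequence that is unique to it. That length was the exonic size deposited for the gene, which can exceed its transcript. For SLFN12L it was 13640 bases, and the longest coding transcript had 3119. For SLFN14 the 2 lengths were 7169 and 2889 bases. With transcript lengths the limits would be higher, so the folds below hold only for the deposited sizes. For SLFN11 this corresponds to 0.0102 FPKM in si-NC and 0.0107 FPKM in si-STRIP2. On that basis SLFN5 was at least 2473-fold higher per length than SLFN11 in si-NC and at least 907.6-fold higher in si-STRIP2. By its deposited size the limit for SLFN12L was 0.00398 FPKM in si-NC and 0.00418 in si-STRIP2. On that size SLFN5 was at least 6333-fold and at least 2324-fold above it. In si-NC, SLFN5 was at least 1699-fold above SLFN12 and at least 3383-fold above SLFN14. In si-STRIP2 it was at least 1488-fold above SLFN13. The order of levels per length in both groups was thus SLFN5 first, with the other 5 genes not separable from each other.

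Reads can be told apart between these genes only where their sequences differ, and the genes are close copies in places. The longest protein-coding transcript of each member in GENCODE release 29 was cut into all its stretches of 50 bases. For SLFN5, 99.8% of 10542 stretches occurred in no other gene's transcripts, and 0 occurred in another member. For SLFN11 the unique share was 87.6% of 4981 stretches, since 617 were also found in SLFN13, and their coding regions share an unbroken run of 516 bases. The unique share was 92.1% for SLFN13, 98.03% for SLFN12, 98.4% for SLFN12L and 100% for SLFN14. The 0 counts of SLFN11 thus stand for the part of its transcript that SLFN13 does not share, and reads from the shared part may have been counted for neither gene. Whether such reads were dropped is not given in the sources used here.

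The longest runs that SLFN5 shares with the coding regions of the other members are shown next, since they are the places where a read of one gene could be taken for another. Capitals mark the shared run and lower case marks 10 bases on each side, from GENCODE 29 transcripts on GRCh38, written 5′ to 3′ on the strand of the gene. The coordinates given with each pair cover the whole stretch shown, the 10 bases on each side included. The SLFN5 run shared with SLFN11 has 41 bases and lies in exon 5 of SLFN5 (chr17:35265153-35265213, plus strand) and exon 7 of SLFN11 (chr17:35353004-35353064, minus strand).
SLFN5: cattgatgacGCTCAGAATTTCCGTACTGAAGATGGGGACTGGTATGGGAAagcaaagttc
SLFN11: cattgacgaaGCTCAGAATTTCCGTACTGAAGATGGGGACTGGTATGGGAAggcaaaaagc

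The run that SLFN5 shares with SLFN13 has 39 bases, in the same exon 5 (chr17:35265228-35265286, plus strand) and in exon 6 of SLFN13 (chr17:35441158-35441216, minus strand). With SLFN12 and SLFN12L the longest shared run is 24 bases, and with SLFN14 it is 15.
SLFN5: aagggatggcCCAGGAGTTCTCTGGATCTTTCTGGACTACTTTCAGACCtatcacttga
SLFN13: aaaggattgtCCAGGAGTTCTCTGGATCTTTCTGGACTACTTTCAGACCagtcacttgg

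SLFN12 and SLFN12L share a run of 79 bases, in exon 6 of SLFN12 (chr17:35411552-35411650, minus strand) and exon 4 of SLFN12L (chr17:35475110-35475208, minus strand), which is long enough to hold a whole stretch of 50 bases. The longest run of SLFN5 with any member is shorter than that.
SLFN12: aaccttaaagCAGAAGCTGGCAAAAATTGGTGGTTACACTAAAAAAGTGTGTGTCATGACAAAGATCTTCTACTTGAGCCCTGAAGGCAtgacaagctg
SLFN12L: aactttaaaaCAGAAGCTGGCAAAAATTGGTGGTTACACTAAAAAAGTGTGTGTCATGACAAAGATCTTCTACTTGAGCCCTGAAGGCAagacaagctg

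SLFN5 (ENSG00000166750, chromosome 17, 35243071 to 35273655, plus strand) is a mainly nuclear member known for restricting herpes simplex virus and for acting at interferon target genes. Its raw counts were 5461, 4951 and 4621 in si-NC and 1905, 1791 and 1845 in si-STRIP2. Per length, its level was 23.55, 26.8 and 25.19 FPKM in si-NC and 9.50, 9.60 and 10.04 FPKM in si-STRIP2. Each si-STRIP2 library was lower than each si-NC library, and the lowest si-NC value was 2.35 times the highest si-STRIP2 value. The groups did not overlap in FPKM for 58.6% of all genes tested. The mean was 25.2 ± 1.63 FPKM in si-NC and 9.71 ± 0.287 FPKM in si-STRIP2 (SD, n = 3), so 38.6% of the control level remained. The spread within a group was small beside that, with a coefficient of variation of 6.45% in si-NC and 2.96% in si-STRIP2. On the log2 scale the fitted difference was -1.38 (SE 0.045), which is 2.60-fold. Of the 6 members, SLFN5 was the 1 gene that could be tested, and it was among the 54.8% of tested genes that edgeR called. Since the member was chosen on this contrast, nothing is read from that count. In bulk RNA, fewer cells with the transcript and less of it per cell cannot be told apart.

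**Figure D2:**
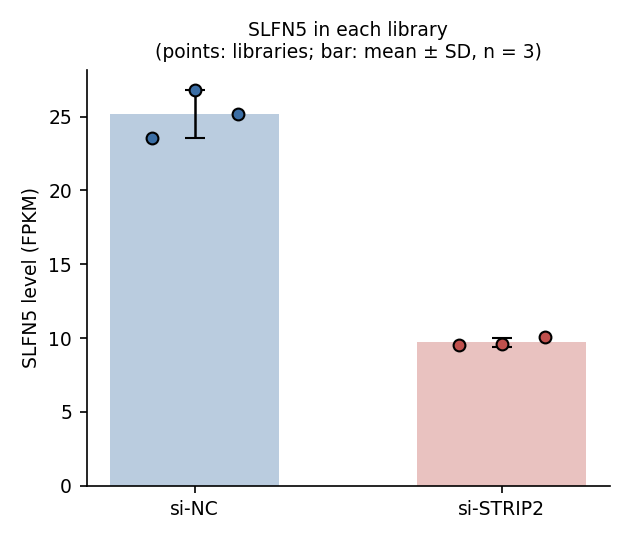
SLFN5 level in FPKM (vertical axis) in the 3 si-NC and 3 si-STRIP2 libraries, with points for libraries and bars for the mean ± SD. The si-NC libraries lie between 23.55 and 26.8 FPKM and the si-STRIP2 libraries between 9.50 and 10.04 FPKM.

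SLFN5 stood high among the expressed genes of si-NC and nearer the middle in si-STRIP2. In si-NC, 89.6% of the 15687 tested genes had a lower mean FPKM, and in si-STRIP2 73.05% did. The median tested gene stood at 3.65 FPKM in si-NC and 3.69 FPKM in si-STRIP2. By FPKM, SLFN5 ranked 1551 to 1772 among the tested genes in the si-NC libraries and 4074 to 4302 in the si-STRIP2 libraries. Its log2 fold change had 196 tested genes below it, or 1.25% of them, while the median of all tested genes was 0.014. SLFN5 was chosen on this contrast, so its place by fold change, here and in what follows, is a description only. Among the 1638 genes at or above the control level of SLFN5, it was 1 of 7 with a log2 fold change that low. The other 6 were UCA1 (-1.59), AREG (-1.54), FGF19 (-1.46), EGR1 (-1.45), MAP1LC3B (-1.44) and TGFA (-1.43), which were singled out after their values were seen.

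No gene of the table overlaps SLFN5, so its counts are not shared with a gene on the other strand. The nearest is ENSG00000266947, which lies head to head with SLFN5 on the minus strand, its own start 108 bases from that of SLFN5. It had 251 counts in all, 1.22% as many as SLFN5, and its mean level was 0.757 ± 0.158 FPKM in si-NC and 0.713 ± 0.106 FPKM in si-STRIP2 (SD, n = 3). Its log2 fold change was -0.083 (SE 0.210, edgeR adjusted p = 0.762), and the groups overlapped. The neighbour upstream thus did not pass the test at this low depth.

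The 6 genes span 317749 bases, with SLFN5 alone on the plus strand, 76649 bases from SLFN11, and the other 5 on the minus strand. Between the outermost members lie 18 other genes in the table, none of which could be tested, with at most 4 counts in a library. Within 500000 bases on either side, 15 of 74 other genes were tested, all of them outside the cluster. Of these 15, 5 were called higher and 4 lower by edgeR, against 27.8% and 27.0% of all tested genes, and their log2 fold changes ran from -0.80 to 0.52 with a median of 0.12. SLFN5, at -1.38, lay below each of them. As SLFN5 was chosen on this contrast, its place beside these genes is a description only. LIG3, a DNA ligase of base excision and mitochondrial repair, rose from 2.10 ± 0.0757 to 3.03 ± 0.0755 FPKM (log2 fold change 0.52, SE 0.060, edgeR adjusted p = 4.78e-09), though RFFL and another gene that overlap it held 209% as many counts. AP2B1, an adaptor subunit of clathrin-coated vesicles on the far side of SLFN14, rose from 43.2 ± 1.39 to 53.9 ± 1.895 FPKM (log2 fold change 0.32, SE 0.041, edgeR adjusted p = 5.88e-08). LRRC37A9P, a pseudogene of a repeated family whose reads may belong to its copies, fell by 0.80 on the log2 scale (SE 0.211, edgeR adjusted p = 0.00175). RAD51D, a recombination factor, rose by 0.23 (edgeR adjusted p = 0.0104), and TAF15 had a log2 fold change of -0.0020 (edgeR adjusted p = 0.967). The called share, 60%, was near the 54.8% of all tested genes, and the called neighbours moved in both directions. With si-NC replicate 3 left out only 3 were called higher, and with si-STRIP2 replicate 3 left out only 2 lower.

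**Figure D3:**
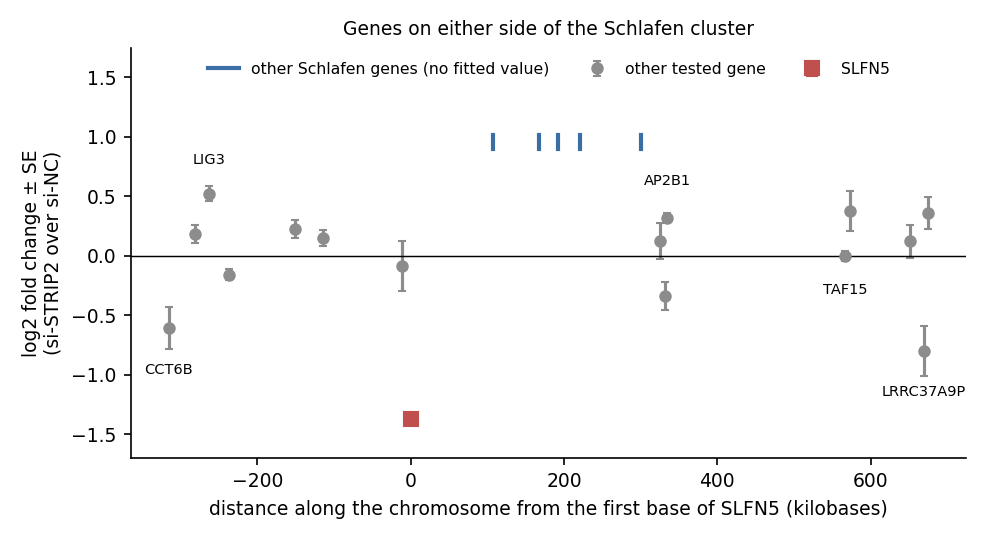
Log2 fold change ± SE of si-STRIP2 over si-NC (vertical axis) against distance along the chromosome from SLFN5 in kilobases (horizontal axis) for SLFN5 (red square) and the 15 other tested genes in the window (grey). Blue ticks mark the other 5 Schlafen genes, which have no fitted value. SLFN5, chosen on this contrast, is at -1.38, below each neighbour, the lowest being LRRC37A9P at -0.80.

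The sequences before the start sites of the silent members were examined for what they share. Promoters of 250 bases before to 50 bases after the start were matched by symbol for 3 of the 6 members, SLFN11, SLFN12 and SLFN12L, from RefSeq on GRCh38.p14. SLFN5, SLFN13 and SLFN14 had no entry. Each was searched on both strands for the core of the interferon-stimulated response element (GAAANNGAAA), the GAS element of interferon gamma signalling (TTCNNNGAA) and a site of ETS factors (CCGGAAGT), and matches are in capitals. Of 35116 promoters of this length, 3.57% held the first word, 7.66% the second and 4.14% the third.
SLFN11 (chr17:35373572-35373871, minus strand): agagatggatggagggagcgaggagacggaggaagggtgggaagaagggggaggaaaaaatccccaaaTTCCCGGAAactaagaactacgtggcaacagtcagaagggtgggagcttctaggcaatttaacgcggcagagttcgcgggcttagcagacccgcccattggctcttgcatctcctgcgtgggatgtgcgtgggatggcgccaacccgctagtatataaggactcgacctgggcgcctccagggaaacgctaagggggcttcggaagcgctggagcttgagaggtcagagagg
SLFN12 (chr17:35433125-35433424, minus strand): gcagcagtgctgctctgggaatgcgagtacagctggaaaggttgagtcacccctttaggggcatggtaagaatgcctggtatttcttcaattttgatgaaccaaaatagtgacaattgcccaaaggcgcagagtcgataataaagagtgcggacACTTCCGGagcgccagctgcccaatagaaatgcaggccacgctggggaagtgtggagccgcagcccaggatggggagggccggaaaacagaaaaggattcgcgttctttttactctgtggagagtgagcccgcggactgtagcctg
SLFN12L (chr17:35537629-35537928, minus strand): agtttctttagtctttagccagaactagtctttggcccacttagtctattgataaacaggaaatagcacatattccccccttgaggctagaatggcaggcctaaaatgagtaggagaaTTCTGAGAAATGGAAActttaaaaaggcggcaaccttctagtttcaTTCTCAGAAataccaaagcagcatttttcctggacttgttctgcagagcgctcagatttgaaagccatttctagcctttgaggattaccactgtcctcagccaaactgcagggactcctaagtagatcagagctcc

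The SLFN11 promoter held 1 GAS match, TTCCCGGAA, that begins 182 bases before the start. The SLFN12 promoter held 1 ETS match, read as ACTTCCGG, that begins 96 bases before it. The SLFN12L promoter held 2 GAS matches, TTCTGAGAA and TTCTCAGAA, 132 and 86 bases before the start, and an interferon-type match, GAAATGGAAA, at 126 bases, which overlaps the first of them by 3 bases. The promoters also differed in CG dinucleotides, the sites of DNA methylation. SLFN11 had 18 and SLFN12 had 13, near the median of 14 over all promoters, and SLFN12L had 2, a number below which only 11% of promoters fell. Methylation was not measured here, and the 3 genes were at or near 0 counts in both groups whatever their promoters held.

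Because SLFN5 belongs to the interferon-responsive genes, the layers of that pathway were examined next to it. Of 22 interferon genes in the table, counted after the data had been seen, 15 were at 0 in all libraries, none was tested, and the highest count in a library was 7. Of 20 receptor and signalling genes, all were tested, and edgeR called 11 lower and 4 higher, against 27.0% and 27.8% of all tested genes, with the list's median at -0.32 on the log2 scale and that of all tested genes at 0.014. IFNGR1, the ligand-binding chain of the interferon gamma receptor, fell from 23.2 ± 0.216 to 14.4 ± 0.279 FPKM (SD, n = 3; log2 fold change -0.69, SE 0.046, edgeR adjusted p = 1.11e-14). The kinase gene JAK1 fell from 12.6 ± 0.514 to 9.67 ± 0.269 FPKM (log2 fold change -0.39, SE 0.041, edgeR adjusted p = 9.98e-10). Genes that overlap JAK1, chiefly RAVER2 on the other strand, held 44.6% as many counts (the library kit keeps strand, but the strand setting of the counting is not given). A gene on the other strand from IFNGR2, TMEM50B, held 94.7% as many. STAT2 (0.17), TYK2 (0.17), IFNGR2 (0.14) and IRF2 (0.58) were the 4 that rose, with edgeR adjusted p-values of 0.0149, 0.0340, 0.0250 and 3.41e-05. Fewer rises were called by other tools, 1 by DESeq2 and 2 by limma. Over all 15687 tested genes edgeR called 4359 higher, DESeq2 3556 and limma 3998 to 4012. Leaving out si-STRIP2 replicate 1 also gave 1 rise, and leaving out either the first or the second si-NC replicate gave 2.

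Of 41 interferon-stimulated genes in the table, 33 were tested, and edgeR called 22 lower and 1 higher, against 27.0% and 27.8% of all tested genes, with the list's median at -0.40 on the log2 scale. The rise, that of the antibody receptor TRIM21 (0.30, edgeR adjusted p = 0.0181), was not called under DESeq2 or without any 1 of si-NC replicate 1, si-STRIP2 replicate 2 and si-STRIP2 replicate 3, and 2 rises were called without si-NC replicate 2. SAMD9, an antiviral factor that, like SLFN11, cuts transfer RNA, fell from 6.09 ± 0.389 to 3.08 ± 0.231 FPKM (log2 fold change -0.99, SE 0.068, edgeR adjusted p = 2.83e-14). PARP9, an ADP-ribosyltransferase family member, fell from 3.26 ± 0.187 to 2.24 ± 0.0794 FPKM (log2 fold change -0.54, SE 0.071, edgeR adjusted p = 5.83e-08), and DDX60L, a helicase-like gene, fell by 0.33 (SE 0.048, edgeR adjusted p = 5.08e-07). Both are uncertain, since overlapping genes, DTX3L and PALLD foremost, held 135% and 426% as many counts. Genes that did not pass included IFIT1 (-0.025, edgeR adjusted p = 0.897, with LIPA overlapping it), UBE2L6 (0.019, edgeR adjusted p = 0.863) and LGALS3BP (0.028, edgeR adjusted p = 0.604).

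Beside these genes SLFN5 had a high level and a large difference. As SLFN5 was chosen on this contrast, its place among them is a description only. Of the 33 tested interferon-stimulated genes, only LGALS3BP had a higher mean FPKM in si-NC. A lower log2 fold change than that of SLFN5 was found for 5, BST2, CMPK2, GBP2, IFI44 and OAS1, which in si-NC had at most 2.39 FPKM. Among the 16 list genes with at least 3 FPKM in si-NC, a limit chosen after the data had been seen, the lowest log2 fold change was the -0.99 of SAMD9. BST2, with a log2 fold change of -1.39 and 2.39 FPKM in si-NC, lay under that limit. Among those 16 the largest loss in mean level was 3.63 FPKM, and the mean of SLFN5 differed by -15.5 FPKM. A difference in FPKM also scales with the starting level. With genes kept only at 1 FPKM or more in either group, 22 interferon-stimulated genes were tested and 14 were called lower. Over all genes, 3850 of the 12612 then tested were called lower.

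**Figure D4:**
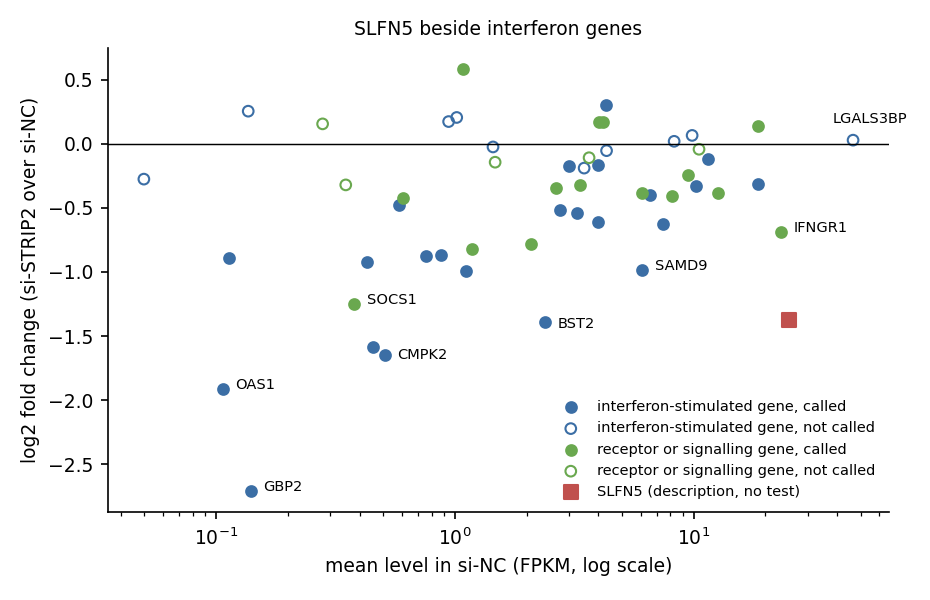
Log2 fold change of si-STRIP2 over si-NC (vertical axis) against the mean si-NC level in FPKM on a log axis (horizontal axis) for tested interferon-stimulated genes (blue), receptor and signalling genes (green) and SLFN5 (red square). Filled circles were called by edgeR and open circles were not, and SLFN5 sits at 25.2 FPKM and -1.38, apart from the genes of similar level.

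The proteins that Schlafen members are known to work with, and others of their pathways, were examined as well. Of 20 such genes, all were tested, and edgeR called 14 higher and 1 lower, against 27.8% and 27.0% of all tested genes, with the list's median at 0.31 on the log2 scale. Several are replication genes. MCM3, a helicase subunit reported to bind SLFN11, rose from 41.1 ± 1.09 to 83.2 ± 2.23 FPKM (log2 fold change 1.01, SE 0.040, edgeR adjusted p = 1.46e-20). RPA1, a subunit of the single-strand binding complex that brings SLFN11 to stressed forks, rose from 28.8 ± 0.627 to 44.6 ± 0.720 FPKM (log2 fold change 0.63, SE 0.040, edgeR adjusted p = 2.98e-15). DDB1, an adaptor of the ubiquitin ligase that removes the licensing factor CDT1, rose from 14.01 ± 0.337 to 21.7 ± 0.635 FPKM (log2 fold change 0.63, SE 0.040, edgeR adjusted p = 4.02e-15), and CDT1 rose by 0.60 (edgeR adjusted p = 2.79e-12). These genes stood at 14 FPKM or more in cells where SLFN11 itself had 0 counts. PDE3A, the partner of SLFN12, was at 0.06 ± 0.01 FPKM in si-NC and 0.05 ± 0.02 in si-STRIP2 (log2 fold change -0.28, SE 0.344, edgeR adjusted p = 0.504), and genes that overlap it held more counts than it did. ZEB1, a mesenchymal transcription factor whose gene SLFN5 has been reported to repress, rose from 0.353 ± 0.0551 to 0.493 ± 0.0503 FPKM (log2 fold change 0.48, SE 0.168, edgeR adjusted p = 0.0160). It is uncertain, since genes that overlap it, ZEB1-AS1 foremost, held 210% as many counts. CHEK1, the 1 gene called lower at -0.11 (edgeR adjusted p = 0.0328), was not called without any 1 of si-NC replicate 1, si-NC replicate 2, si-STRIP2 replicate 1 and si-STRIP2 replicate 2. Genes that overlap CHEK1, STT3A on the same strand foremost, held 222% as many counts.

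Proteins that cut, edit or bind RNA, or are linked to such proteins, were compared as a further list, the RNA protein list. Not all of them are enzymes. Of 20, 18 were tested, 8 called higher and 5 lower by edgeR, against 27.8% and 27.0% of all tested genes, and the median log2 fold change was 0.14. ELAC2, which trims the 3′ ends of transfer RNA precursors, rose from 9.01 ± 0.473 to 14.7 ± 0.647 FPKM (log2 fold change 0.71, SE 0.048, edgeR adjusted p = 1.72e-14). DROSHA, which cuts microRNA precursors in the nucleus, rose from 10.1 ± 0.272 to 15.1 ± 0.211 FPKM (log2 fold change 0.57, SE 0.043, edgeR adjusted p = 1.89e-13). ADAR, the interferon-inducible RNA-editing enzyme, fell from 39.4 ± 0.895 to 31.0 ± 1.11 FPKM (log2 fold change -0.35, SE 0.042, edgeR adjusted p = 9.82e-09). Without si-STRIP2 replicate 1 the number called lower was 3 in place of 5.

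The last list held chromatin regulators and ETS-type factors, kinds of protein with some members reported to act on SLFN11 in other cells. Whether each gene of the list does so was not tested. Of 20, 18 were tested, 6 called higher and 4 lower by edgeR, and the median was 0.029. The called share, 55.6%, was near the 54.8% of all tested genes. FLI1, an activator of SLFN11, was at 0 counts in all libraries, and ERG had 1 count in all. ETS1 fell from 2.97 ± 0.231 to 1.34 ± 0.127 FPKM (log2 fold change -1.16, SE 0.092, edgeR adjusted p = 9.82e-13) and ETS2 from 13.3 ± 0.438 to 9.61 ± 0.290 FPKM (log2 fold change -0.47, SE 0.048, edgeR adjusted p = 4.22e-10); both were singled out after their values were seen. SMARCA4, a chromatin remodeller, rose by 0.63 (SE 0.042, edgeR adjusted p = 1.30e-14), HDAC1, a histone deacetylase, by 0.54 (SE 0.039, edgeR adjusted p = 1.22e-13) and DNMT1, the maintenance DNA methyltransferase, by 0.57 (SE 0.040, edgeR adjusted p = 4.90e-14). EZH2, a histone methyltransferase known to repress SLFN11, had a log2 fold change of -0.018 (edgeR adjusted p = 0.730).

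The genes whose pattern over the 6 libraries was most like that of SLFN5 were CD59, a complement inhibitor, RB1CC1, an autophagy scaffold, and CDH1, the epithelial cadherin. The measure was Pearson's r of log2(CPM + 1), where CPM is the count scaled by library size, over the 6 libraries, among 11297 genes with a symbol and a mean of at least 1 FPKM, and r was 0.9995 to 0.9996 for the 3. As the 6 points fall into 2 groups, r mostly reflects the difference between groups, and 456 genes had an r above 0.99. The sizes differed. In si-STRIP2, 38.6% of the control level in CPM remained for SLFN5, 83.3% for CD59, 58.3% for RB1CC1 and 66.1% for CDH1. Within si-NC all 4 were lowest in replicate 1 and highest in replicate 2, where SLFN5 stood at 93.5% and 106% of its group mean. The 3 genes were picked by r over these same libraries, a choice that favours such a shared order.

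**Figure D5:**
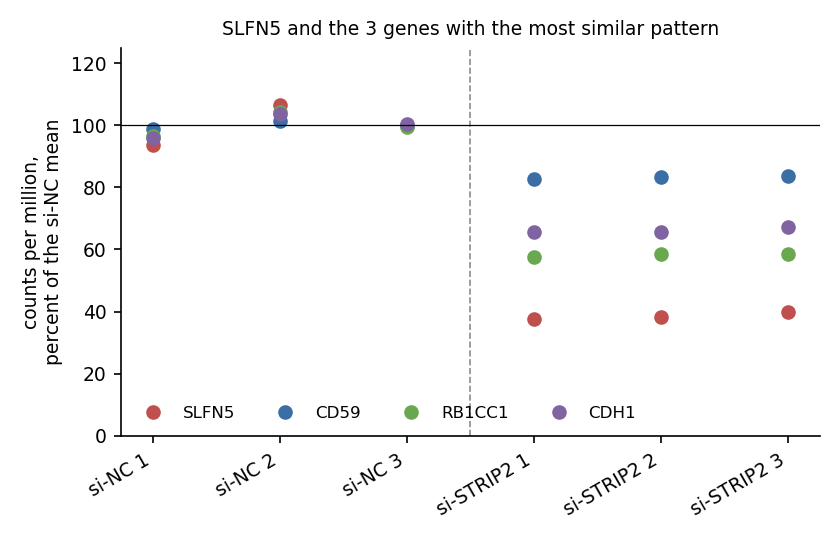
CPM as percent of the si-NC mean (vertical axis) in each of the 6 libraries (horizontal axis) for SLFN5, CD59, RB1CC1 and CDH1. All 4 genes are lower in each si-STRIP2 library than in any si-NC library, and SLFN5 has the lowest si-STRIP2 values, between 37.7% and 39.9%.

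Outside the cluster, the schlafen-like gene SLFNL1 on chromosome 1 (ENSG00000171790, 41015589 to 41023237, minus strand) was detected at a low level. It had 17, 14 and 18 counts in si-NC and 27, 15 and 23 in si-STRIP2, and the groups overlapped (log2 fold change 0.47, SE 0.300, edgeR adjusted p = 0.188). SLFNL1-AS1, which lies over it on the other strand, had 27, 19 and 32 counts in si-NC and 46, 33 and 23 in si-STRIP2 (log2 fold change 0.45, SE 0.263, edgeR adjusted p = 0.152). It was called higher, at 0.68, when si-NC replicate 3 was left out. Without the strand setting of the counting, reads of the pair cannot be told apart.

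The share of counts from mitochondrial genes, a sign of RNA quality, was 4.88% to 8.88% in si-NC and 5.73% to 6.30% in si-STRIP2, and its part in the SLFN5 difference was not tested. Leaving out each library in turn moved the log2 fold change of SLFN5 between -1.42 and -1.34.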

How the data were processed

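RNA-seq libraries of HCT116 cells, 3 si-NC and 3 si-STRIP2, were grouped by their titles. The authors deposited 1 table with a raw count and an FPKM value per gene and library. The submitters' processing notes name bcl2fastq 2.20.0.422, FastQC 0.10.1, cutadapt 1.9.1, HISAT2 2.2.1, HTSeq 0.6.1 and GRCh38.p13. The annotation release and strand setting are not given in the sources used here. Deposited FPKM differed by at most 0.005 from count, exonic size and column total.

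Counts were tested in R 4.3.3 with edgeR 4.0.16: filterByExpr (minimum count 10), TMM scaling, group as the only term, quasi-likelihood F test, 2-sided, Benjamini-Hochberg over 15687 genes, called at an adjusted p under 0.05. SE is the absolute log2 fold change over the square root of F. On simulated counts for 15687 genes, 200 were changed, by 1 or 2 log2 units. Of those changed by 1 unit 86% were recovered, and of those changed by 2 units 97%. Of the calls, 6.63% were unchanged genes. In the real data 54.8% of genes were called, and the simulation does not speak for so many changes or for smaller ones. Alternatives used limma 3.58.1 and DESeq2 1.42.0.

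The members and lists were chosen with earlier results of these data known. Named genes are the members, STRIP2, other SLFN symbols, the 3 smallest adjusted p-values per list and the 3 genes most like SLFN5; some genes are not reported here, and further genes are named as examples or as exceptions to a count, and promoter words were picked after the data had been seen. The planned fitted values for members under the filter are not given, as both groups were at or under 3 counts.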

Additional observations from a re-analysis of the deposited data

How the results depend on the processing

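Results were recomputed under 14 alternatives, 6 of which left out a library. The log2 fold change of SLFN5 ran from -1.42 to -1.29 over them, and only limma on log2(FPKM + 1), where the pseudocount shrinks it, moved it by more than the SD between replicates, to -1.29. The number of genes called was 8599 in the main fit and ran from 7690 to 8494 with a library left out. DESeq2 called fewer, 7238 of the same 15687 genes. Limma called 7851 with a pseudocount of 1 and 7877 with a pseudocount of 0.1. For 24 genes named by rule, STRIP2 and the SLFNL1 pair included, 332 of 333 recomputed values kept direction and call, and SLFNL1-AS1 was called, at 0.68, without si-NC replicate 3. Genes named as exceptions to a count were not among these.

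Some counts within lists moved, and so did the counts over all tested genes. The main fit called 4359 of 15687 genes higher and 4240 lower, and DESeq2 called 3556 and 3682. Limma called 3998 higher with a pseudocount of 1 and 4012 with 0.1. With the filter of 1 FPKM, 3776 of 12612 genes were called higher and 3850 lower. With no filter, 4152 of 32799 were called lower. Under DESeq2 the receptor and signalling list had 1 rise. The interferon-stimulated list had 0 under DESeq2 (1 at an unadjusted p under 0.05, and 1 under edgeR). DESeq2 gave the RNA protein list 5 rises and 3 falls, and the neighbours 3 rises. Under limma the receptor list had 2 rises with either pseudocount, and the RNA protein list 5 with a pseudocount of 1. With the filter of 1 FPKM, 14 interferon-stimulated genes fell. The partners list had 0 falls under edgeR with no filter (1 at an unadjusted p under 0.05). Leaving out libraries gave 1 to 3 receptor rises, 0 to 2 interferon-stimulated rises and 3 to 5 falls in the RNA protein list. It gave 0 to 1 falls among partners, and 3 to 5 rises and 2 to 4 falls among neighbours. Over all tested genes it gave 3866 to 4244 rises and 3824 to 4250 falls. The cause was not tested.

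Same-numbered libraries showed no shared deviation from their group means, with correlations of -0.086, -0.013 and -0.072. The labels do not tell if the libraries were paired by culture or batch, and these correlations cannot settle it. With a replicate block, SLFN5 was at -1.38 and the partners list had 0 falls under edgeR (1 at an unadjusted p under 0.05). Over all 15687 tested genes 4097 were then called lower. Depth limits what can be said of the 5 members at or under 3 counts.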
